A study of Mus musculus with 6 samples.

Results

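The mRNA levels of 10 genes were examined in HT22 cells, 7 encoding cytoplasmic intermediate filament proteins and 3 encoding markers of neuronal growth. They were chosen by name as genes commonly used to tell a neuronal from a progenitor-like or mesenchymal state, and they are 10 of the 21878 gene symbols in the deposited expression table. The type III filament genes were Vim and Prph. The type IV genes were Nes, Nefl, Nefm, Nefh and Ina. The growth markers were Gap43, Dcx and Stmn1.

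HT22 is an immortalised mouse hippocampal line derived from HT4 cells and widely used as a neuronal model. The Al group had received 120 µM aluminum maltolate for 24 h, and the control group had not. The methods describe both a control kept in DMEM alone and a maltol control, and do not say which was sequenced. Each group had 3 libraries, described as biological replicates of this 1 line, made from the input RNA of an m6A immunoprecipitation experiment (RNA that was fragmented but not enriched for the mark).

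Intermediate filaments are ropelike polymers whose subunits change with cell type and maturation. Vimentin forms the network of mesenchymal cells and of many immature or cultured cells, and nestin joins it in neural progenitors. As neurons mature, α-internexin and the light, medium and heavy neurofilament proteins take over, and peripherin is found in peripheral neurons and in some central ones. Gap43 lies under the membrane of growth cones, doublecortin binds microtubules in migrating young neurons, and stathmin 1 sequesters tubulin in dividing and in developing cells.

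The values were FPKM, fragments counted on a gene per kilobase of its transcript and per 1000000 counted fragments. They are per length, so levels of different genes can be set side by side. Because FPKM of a gene move in whole steps of 1 read, the reads behind each value could be recovered. Library totals were 38059492 to 44556768 reads in the control group and 21125631 to 26670978 in the Al group, so scarce transcripts were measured less deeply in the Al group. The 50 most abundant genes held 18.0 to 19.4% of all FPKM in control libraries and 30.0 to 32.5% in Al libraries. Levels were therefore compared after division by size factors (medians of ratios), which ranged from 1.17 to 1.21 in the control group and were 0.802, 0.815 and 0.932 in the Al group. Al replicate 3 stood apart from the other Al libraries in this factor and in several of the values below. In bulk RNA, fewer expressing cells and less RNA per cell cannot be told apart.

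The 10 transcripts differed in level by several orders of magnitude, and the neuronal members lay at the bottom. Vim and Stmn1 were the members with a mean of at least 1 FPKM. The other 8 stayed under 1 FPKM in every library, and 2 of them, Nefm and Ina, were listed at 0 in all 6. Among all genes of the table, 4190 (19.2%) were listed at 0 throughout, and 10411 (47.6%) had a control mean of at least 1 FPKM. In the control group the order of mean levels was Vim, Stmn1, Prph, Nefh, Nes, Nefl, Gap43 and Dcx. Vim and Stmn1 were separated from each other and from the rest in every library, Prph exceeded Nefh, Nes, Nefl, Gap43 and Dcx in each control library, and the neighbours below Prph overlapped in their values across libraries.

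**Figure D1:**
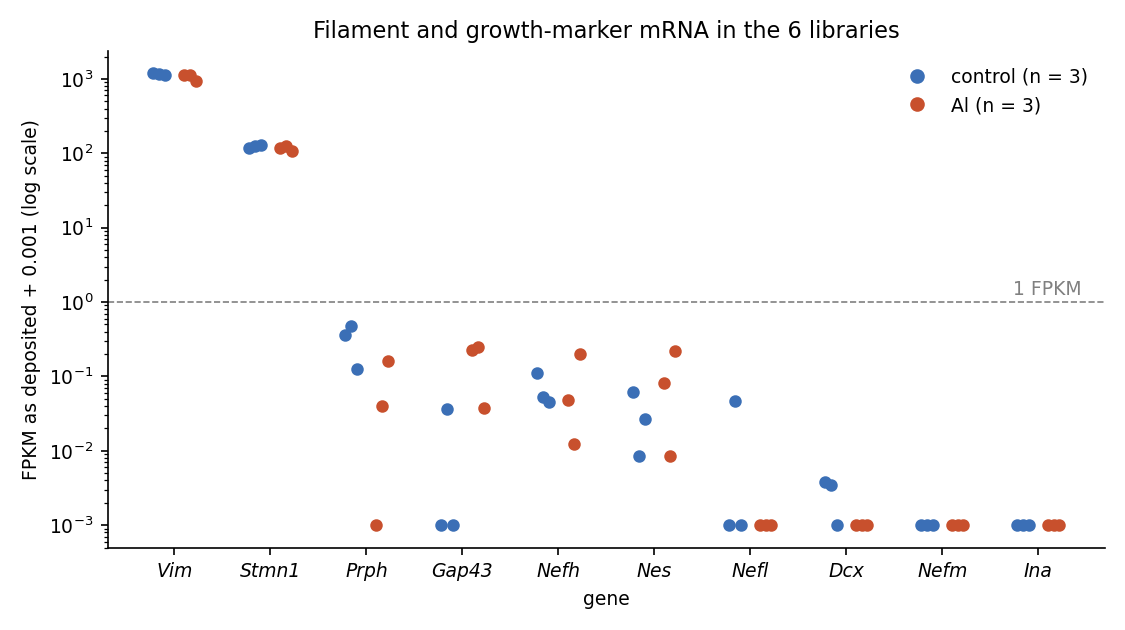
FPKM as deposited plus 0.001 on a log axis for the 10 genes, with 1 point per library, control in blue and Al in red (n = 3 each), and a dashed line at 1 FPKM. Vim (952 to 1188 FPKM) and Stmn1 (105.8 to 127.4 FPKM) lie at the top in both groups, the other 8 lie below the dashed line, and points at 0.001 are libraries with 0 reads.

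RefSeq promoter sequences (GRCm38.p6) were matched for Vim, Prph, Ina, Nes and Dcx. The 120 bases before the annotated start are given for a type III and a type IV neuronal filament gene, Prph (chr15:99055054-99055173, plus strand) and Ina (chr19:47014561-47014680, plus strand), because the first was scarce and the second unread in these cells. Capitals mark TATAAA, the letters of a TATA box, and CCGCCC, a GC box read on the opposite strand.
Prph: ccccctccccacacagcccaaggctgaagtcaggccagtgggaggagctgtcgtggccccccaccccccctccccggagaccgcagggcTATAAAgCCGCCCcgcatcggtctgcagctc
Ina: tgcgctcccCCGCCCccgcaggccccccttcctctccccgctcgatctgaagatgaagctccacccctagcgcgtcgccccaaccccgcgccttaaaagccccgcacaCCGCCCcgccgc
The TATA box was searched by these letters, the GC box as GGGCGG and the CCAAT box by the letters of its name, on both strands of the 250 bases before each start. Of all 32851 RefSeq promoters, 12.4% held a TATA box, 33.8% a CCAAT box and 32.7% a GC box. Prph held 1 TATA box next to 1 GC box. Ina held 2 GC boxes and neither of the others, with 25 CG dinucleotides against a median of 6 over all promoters. Vim held 1 TATA box, 2 CCAAT boxes and 8 CG dinucleotides. Its window lies in the first exon of a longer GENCODE transcript and is not printed.

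Vim carried nearly all of the filament mRNA. Its FPKM were 1188, 1167 and 1124 in control replicates 1 to 3 and 1131, 1138 and 952 in the Al replicates, from 82935, 92948, 91832, 55336, 45635 and 36875 reads. As deposited the groups overlapped, with means of 1160 ± 32.8 and 1074 ± 106 FPKM (SD, n = 3 each; exact two-sided permutation P = 0.3, where 3 against 3 cannot go below 0.1). After scaling, the values were 1003, 966 and 957 in control libraries and 1410, 1398 and 1021 in Al libraries. Al replicates 1 and 2 then lay well above the controls and Al replicate 3 just above them, so the groups did not overlap, as for 68.1% of the 12889 tested genes. The log2 fold change of scaled Vim was 0.37 ± 0.24 (SE; 95% interval −0.16 to 0.91), which did not pass limma's test (Benjamini-Hochberg adjusted P = 0.196).

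The direction of that difference depended on the scaling. Vim differed by −0.12 in FPKM as deposited (adjusted P = 0.499 in limma), by −0.41 when each library was brought to the same sum of FPKM (adjusted P = 0.00212, short of the fold threshold) and by −0.98 after quantile normalization (adjusted P = 8.83e-05, called lower). Those scalings also moved the median of all tested genes, from 0.03 with size factors to −0.43, −0.74 and −0.03. Among all tested genes the log2 fold change of Vim stood at percentile 63.8, 62.6 and 62.6 under size factors, deposited values and equal sums, and at 14.6 after quantile normalization. Leaving out Al replicate 3 gave a log2 fold change of 0.54 (adjusted P = 0.00606 in limma), still short of the 0.58 that a call required.

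Ranks within a library need no scaling between libraries. Vim was the 21st, 27th and 31st most abundant transcript in control replicates 1, 2 and 3 and ranked 75, 73 and 75 in the Al libraries. Its share of all FPKM, the quantity that equal sums compare, was 0.329, 0.310 and 0.292% in control libraries and 0.236, 0.240 and 0.222% in Al libraries. Rank and share were therefore lower in each Al library than in any control library. There were 41 genes that lay below Vim in all 3 control libraries and above it in all 3 Al libraries, and 30 of them (73.2%) encoded cytosolic ribosomal proteins. Only 1 gene crossed the other way. Counted in reads rather than per length, Vim took 0.218, 0.214 and 0.206% in control libraries and 0.207, 0.209 and 0.175% in Al libraries, and these overlapped.

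Stmn1 followed Vim closely at a lower level. Its FPKM were 118.8, 124.7 and 127.4 in control libraries and 119.2, 126.1 and 105.8 in Al libraries, from 2370 to 6018 reads. As deposited the groups overlapped, at 124 ± 4.39 and 117 ± 10.3 FPKM (SD, n = 3 each; exact permutation P = 0.5). After scaling they did not, at 100.3, 103 and 109 against 149, 155 and 114, with Al replicate 3 again nearest to the controls. The scaled log2 fold change was 0.41 ± 0.14 (SE; 95% interval 0.09 to 0.72; adjusted P = 0.0303 in limma), a 1.32-fold difference that stayed under the fold threshold. The sign turned under the other scalings, to −0.08 in deposited FPKM, −0.38 at equal sums and −0.22 after quantile normalization. Without Al replicate 3 the value was 0.56 (adjusted P = 0.000437 in limma). A processed pseudogene, Gm11223, matches 450 bases of the Stmn1 transcript at 99.8% identity and is no entry of the table, so reads within that stretch cannot be told apart.

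The ratio of Stmn1 to Vim was 10.001, 10.7 and 11.3% in control libraries and 10.5, 11.1 and 11.1% in Al libraries. The Al values lay inside the control range, and the difference in log2 ratio was 0.03 (SD 0.09 and 0.04, n = 3 each; exact permutation P = 0.7). Across the 6 libraries the scaled profile of Stmn1 correlated with that of Vim at a Pearson r of 0.970, a description over libraries that share 2 groups. Of 10348 genes with a mean of at least 1 FPKM, 821 had an r of at least 0.9 with Vim, and Stmn1 ranked 120. The 3 nearest profiles were those of Gchfr (r = 0.996), which encodes a regulator of GTP cyclohydrolase, Sdhc (0.996), a subunit of succinate dehydrogenase, and Mpc2 (0.996), a part of the mitochondrial pyruvate carrier.

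**Figure D2:**
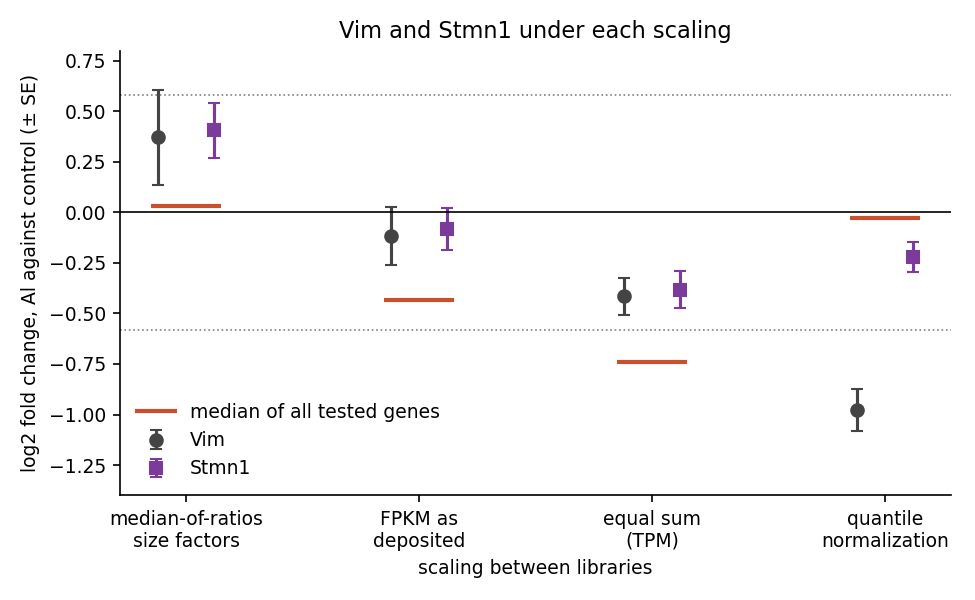
Log2 fold change of Vim (circles) and Stmn1 (squares) in Al against control libraries, with standard errors, under 4 scalings on the horizontal axis, and the median of all tested genes as a bar. Both genes lie above the median of all tested genes with size factors (0.37 and 0.41), deposited FPKM (−0.12 and −0.08) and equal sums (−0.41 and −0.38), and below it after quantile normalization (−0.98 and −0.22), and the dotted lines mark the fold threshold of 0.58.

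Of the 10 members, 3 had the mean of 0.1 FPKM needed for the test across genes (Vim, Stmn1 and Prph), and Prph reached it only through the control group. Limma called none of them at an adjusted P under 0.05 with an absolute log2 fold change over 0.58, where 49.2% of all 12889 tested genes were called, 25.5% higher and 23.7% lower. At an unadjusted P under 0.05 only Stmn1 passed, without the fold change, so none was called at that P either, where 50.6% of all tested genes were (26.2% higher, 24.4% lower). Limma's voom on the recovered reads also called none. The other scalings set other backgrounds. In deposited FPKM 1 of the 3 (Prph) was called lower, where 54.8% of all tested genes were called, 13.5% higher and 41.3% lower. At equal sums 1 of the 3 (Prph) was called lower, where 61.1% were called, 8.84% higher and 52.3% lower. After quantile normalization 2 of the 3 (Prph and Vim) were called lower, where 44.9% were called, 21.5% higher and 23.3% lower.

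Prph, which encodes peripherin, was the most abundant of the neuronal filament transcripts in control libraries and still scarce. In Al libraries its mean of 0.0668 FPKM was below those of Nefh (0.0866) and Nes (0.101). Its FPKM were 0.358, 0.481 and 0.124 in control libraries and 0, 0.0390 and 0.161 in Al libraries, from 32, 49 and 13 reads against 0, 2 and 8. Al replicate 3 lay above control replicate 3, so the groups overlapped (exact permutation P = 0.2). Pooled over a group, the reads came to 0.746 RPM (reads per 1000000 counted reads) in control libraries (94 reads, exact 95% Poisson interval 0.603 to 0.913) and 0.144 RPM in Al libraries (10 reads, 0.0688 to 0.264). These intervals cover counting error only, and the spread between replicates was wider. The log2 fold change was −1.12 ± 0.51 (SE; 95% interval −2.27 to 0.04; adjusted P = 0.0837 in limma), on a scale with 0.1 added, which understates changes of low values. Prph was called lower in deposited FPKM (−1.35, adjusted P = 0.0381), at equal sums (−2.07, 0.0230) and after quantile normalization (−1.36, 0.0253), all with limma. It was also called lower when Al replicate 3 (−1.51, adjusted P = 0.0247) or control replicate 3 (−1.48, adjusted P = 0.0458) was left out, the library of each group that lay nearest to the other group.

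Nes, the gene of the progenitor filament nestin, was scarcely read. It had 14, 2 and 7 reads in control libraries and 13, 1 and 28 in Al libraries, which is 0.0600, 0.00752 and 0.0256 FPKM against 0.0796, 0.00747 and 0.216. The group values overlapped (exact permutation P = 0.3 after scaling), and 28 of the 42 Al reads came from Al replicate 3. Even there nestin mRNA was far below 1 FPKM, so these cells combined abundant vimentin mRNA with nearly no nestin mRNA.

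The neurofilament genes were likewise near the limit of detection. Nefh, the heavy subunit, had 17, 9 and 8 reads in control libraries and 5, 1 and 17 in Al libraries (0.0450 to 0.112 FPKM and 0.0115 to 0.201 FPKM), and the groups overlapped (exact permutation P = 0.8 after scaling). Nefl, the light subunit on which neurofilaments assemble, had 4 reads in control replicate 2 (0.0459 FPKM) and none elsewhere. Nefm, the medium subunit, and Ina, α-internexin, had none. With 3 reads as the number that a count of 0 allows, levels of up to 0.0183 to 0.0386 FPKM of Nefm and 0.0208 to 0.0438 FPKM of Ina, depending on the library, were not detectable at this depth. Nefl and Nefm overlap on opposite strands of chromosome 14 (GRCm38, chr14:68083863-68089095 and chr14:68082590-68124846), and Ina shares 456 bases with the oppositely oriented Nt5c2. Whether the counting used strand is not given in the sources used here.

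Over the 7 filament members, Vim made up 99.96 ± 0.0176% of the summed FPKM in control libraries and 99.97 ± 0.0306% in Al libraries (SD, n = 3 each; exact permutation P = 0.7). The 6 others together held 0.0173 to 0.0502% in control libraries and 0.00509 to 0.0608% in Al libraries. A share this close to its maximum shows little of the rest. Prph held 0.0275 ± 0.0152% in control libraries and 0.00679 ± 0.00896% in Al libraries, which overlapped (exact permutation P = 0.2).

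Gap43 was read at very low counts, and its libraries separated by group. It had 0, 2 and 0 reads in control libraries and 8, 7 and 1 in Al libraries, or 0, 0.0352 and 0 FPKM against 0.229, 0.244 and 0.0361. Every Al library lay above every control library, as deposited and after scaling, but Al replicate 3 and control replicate 2 were almost level (exact permutation P = 0.1, the smallest that 3 against 3 allow). The groups did not overlap for 70.2% of all tested genes in deposited FPKM. Pooled, the reads came to 0.0159 RPM in control libraries (2 reads, exact 95% Poisson interval 0.00192 to 0.0573) and 0.230 RPM in Al libraries (16 reads, 0.131 to 0.373), intervals that cover counting error only and not the spread between replicates. The mean was under the filter of 0.1 FPKM, so Gap43 was not among the genes tested. Basp1, which encodes an abundant growth-cone protein of the same functional group, had 124 ± 4.49 and 120 ± 23.7 FPKM (SD, n = 3 each), and the log2 ratio of Gap43 to Basp1, with 0.1 added to each, was 1.23 higher in the Al group (exact permutation P = 0.1).

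Dcx, the marker of migrating young neurons, had 1 read in control replicates 1 and 2 (0.00285 and 0.00250 FPKM) and none in the other 4 libraries. Among the 10 genes it was the scarcest that was detected at all. Stmn1 was therefore the only growth marker present at more than a trace, and it is expressed in dividing cells of many kinds.

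**Figure D3:**
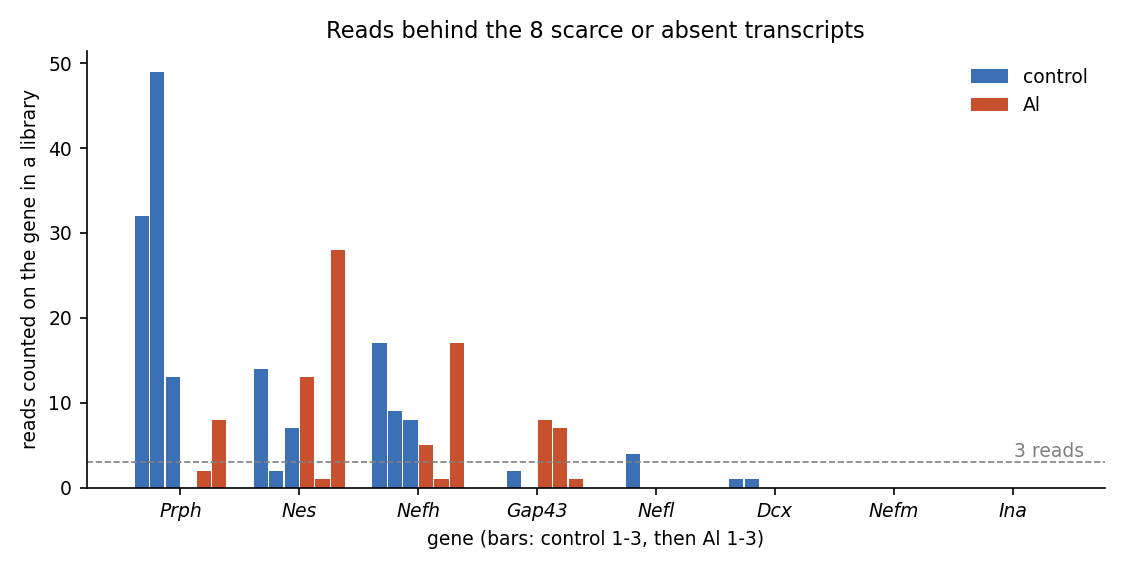
Recovered reads per library (bars, control replicates 1 to 3 in blue and then Al replicates 1 to 3 in red) for the 8 genes under 1 FPKM, with a dashed line at the 3 reads that a count of 0 allows. Prph is highest at 49 reads in control replicate 2, Nes and Nefh have their tallest Al bar in Al replicate 3, and Nefm and Ina have no reads.

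Most of the related filament genes that could be tested were lower. Of 15 other cytoplasmic filament genes, 5 were tested and 4 fell under each of the 4 scalings except that Krt10 did not pass after quantile normalization. Over all tested genes 23.7% were called lower with size factors, 41.3% in deposited FPKM, 52.3% at equal sums and 23.3% after quantile normalization. Des, the muscle filament desmin, fell from 4.47 ± 0.0833 to 1.59 ± 0.532 FPKM (SD, n = 3 each; log2 fold change −1.03 ± 0.23 SE, adjusted P = 0.00401 in limma). Krt80, an epithelial keratin, fell from 15.7 ± 6.10 to 4.82 ± 1.03 FPKM (−1.16 ± 0.26, adjusted P = 0.0045). Synm, synemin, which joins vimentin and desmin filaments, and Krt10 were the others (−1.10 and −0.67), named after their values were seen. Bfsp2, a lens filament gene, was the other tested gene and did not pass (0.62 ± 0.67, adjusted P = 0.437 in limma). The median of the 5 was −1.03, beside 0.03 over all tested genes. Gfap, the astrocyte filament, stayed under 0.1 FPKM in mean in both groups, and Krt18, Krt20 and Krt14 had no reads.

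Among 12 tested genes that link, move or degrade filaments, 3 rose and 5 fell (median −0.23) with size factors, beside 25.5% and 23.7% over all tested genes, and 1 rose and 7 fell at equal sums, beside 8.84% and 52.3%. Evpl, which rose under both, had means of 0.0786 FPKM in the control group and 0.932 FPKM in the Al group. It reached the filter only through the Al group and was named after its values were seen. With a mean of at least 1 FPKM required, 1 rose and 4 fell. Plec, the plectin linker that ties vimentin to other cytoskeletal systems, was the most abundant, at 134 ± 13.8 and 142 ± 10.7 FPKM (log2 fold change 0.58 ± 0.13, just under the threshold), and its sign turned at equal sums (−0.21) and after quantile normalization (−0.05). Tchp, trichoplein, a keratin-binding protein, rose (1.07, adjusted P = 0.000168 in limma), short of the fold threshold at equal sums (0.30). Trim2, a ubiquitin ligase of the neurofilament light subunit, fell (−1.11, adjusted P = 0.000618 in limma), as did the crosslinker Macf1 (−0.82, adjusted P = 0.000363), both under every scaling. Of 17 tested kinases and phosphatases that act on filament proteins, 4 rose and 6 fell (median −0.31) with size factors, beside 25.5% and 23.7% over all tested genes. After quantile normalization 2 were called higher and 6 lower, beside 21.5% and 23.3%. In deposited FPKM and at equal sums none was called higher, beside 13.5% and 8.84%. In deposited FPKM 11 were called lower (41.3% over all tested genes), and at equal sums 13 (52.3% over all, with a median of −1.10 in the list and −0.74 over all). Cdk1, the mitotic kinase that phosphorylates vimentin, had 31.8 ± 2.06 and 45.2 ± 1.87 FPKM and rose by 0.995 on the log2 scale, but stood at 0.51 in deposited FPKM and 0.21 at equal sums, where it was not called. The phosphatase subunit Ppp2ca rose by 0.77, but did not pass the threshold under the other scalings, with a sign that turned at equal sums (−0.02). Gsk3b (−0.94) and Prkca (−0.91) fell under every scaling. Akt1, the most abundant of this list in control libraries but not in Al libraries, did not pass with size factors (0.20, adjusted P = 0.369 in limma). It was called lower at equal sums (−0.59).

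The relatives of the growth markers gave values in both directions. Of the 3 tested stathmin and doublecortin relatives, Dclk1, a doublecortin-like kinase, fell from 11.3 ± 0.967 to 2.74 ± 0.192 FPKM (log2 fold change −1.53 ± 0.14, adjusted P = 4.72e-05 in limma) under every scaling. Dclk2 fell from 3.85 ± 0.554 to 1.73 ± 0.358 FPKM (−0.65, adjusted P = 0.00953), short of the threshold after quantile normalization (−0.32). Stmn4 did not pass (1.18 ± 0.48, adjusted P = 0.0596). The neuronal stathmins Stmn2 and Stmn3 had 4 and 13 reads over all 6 libraries, so among the stathmins the mRNA was almost wholly Stmn1. Of 9 tested growth-cone proteins 2 rose and 1 fell with size factors (median 0.28), against 2 and 3 in deposited FPKM and 2 and 4 at equal sums (median −0.50) and after quantile normalization, where all tested genes gave 25.5% and 23.7%, 13.5% and 41.3%, 8.84% and 52.3%, and 21.5% and 23.3%. Marcksl1, a membrane-associated actin regulator, fell (−0.69, adjusted P = 0.00405 in limma, and −0.55 without Al replicate 3, where it was not called and the counts were 4 and 0), and the genes that rose, Nrgn and Dpysl5, had means of 0.0127 and 0.00998 FPKM in the control group and 0.321 and 0.318 FPKM in the Al group, reached the filter only through the Al group, and were named after their values were seen. Fscn1, the actin bundler fascin, was the most abundant and did not pass with size factors (0.01 ± 0.33), but was called lower at equal sums (−0.78) and after quantile normalization (−0.68).

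**Figure D4:**
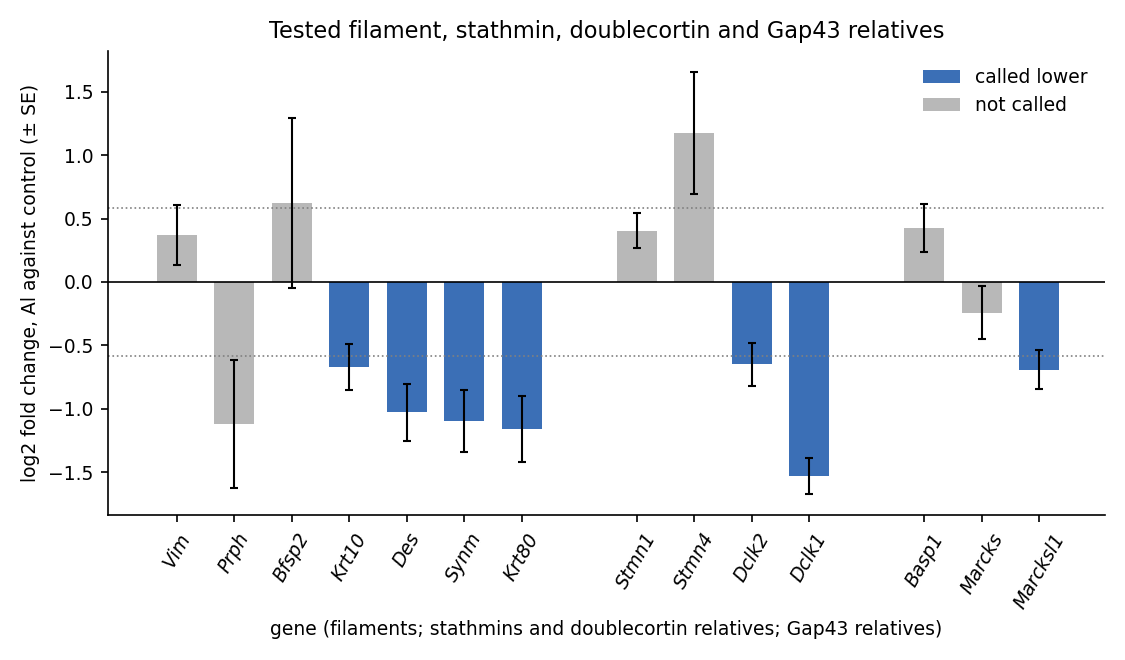
Log2 fold change in Al against control libraries (bars, with standard errors) for the tested filament genes, the stathmin and doublecortin relatives and 3 growth-cone proteins, with size-factor scaling and dotted lines at ±0.58. Krt10, Des, Synm, Krt80, Dclk1, Dclk2 and Marcksl1 are called lower (blue), and Vim (0.37), Prph (−1.12), Stmn1 (0.41), Stmn4 and Basp1 are not called (grey).

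Genes that control axon growth and the neuronal programme were also read. Of 10 tested axon growth transcription factors 3 rose and 2 fell with size factors, against 3 and 5 in deposited FPKM and 1 and 7 at equal sums, where all tested genes gave 25.5% and 23.7%, 13.5% and 41.3%, and 8.84% and 52.3%. Klf4, an inhibitor of axon growth and the most abundant in control libraries, did not pass with size factors (−0.15) and was called lower under the other scalings. Jun, which is induced in injured neurons and drives regeneration genes, rose from 55.9 ± 6.11 to 128 ± 17.3 FPKM (log2 fold change 1.67, adjusted P = 1.51e-05 in limma), and Klf6 rose by 1.31 on the log2 scale, short of the threshold at equal sums (0.52). Stat3 (−1.25) and Klf9 (−1.08), also an inhibitor of axon growth, fell under every scaling. Rest, the repressor of neuronal genes in non-neuronal cells, was present at 33.9 ± 1.57 and 41.7 ± 1.39 FPKM and was called higher with size factors (0.79, adjusted P = 0.000182 in limma), but at 0.30 in deposited FPKM and 0.00 at equal sums it was not. Its corepressors Rcor2 (−1.99) and Rcor1 (−0.80) fell, and Ptbp1, a splicing repressor of neuronal exons, had 146 ± 4.58 and 86.8 ± 10.3 FPKM and did not pass the fold threshold with size factors (−0.27), but was called lower in deposited FPKM (−0.76), at equal sums (−1.06) and after quantile normalization (−0.88).

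The marker lists bear on what kind of cell these libraries came from. Of 19 mature neuron markers, 5 had a control mean of at least 1 FPKM and 3 an Al mean of at least 1 FPKM, with the list summing to 28.3 to 29.3 FPKM per control library and 25.4 to 29.0 per Al library. Snap25 and Uchl1, a synaptic and a neuronal cytoplasmic protein, had no reads, and Map2 and Rbfox3 (the NeuN antigen) had 2 and 8 reads over all libraries. Tubb3, neuronal β-tubulin, stood at 5.32 ± 0.214 and 3.40 ± 0.832 FPKM, did not pass with size factors (−0.19) and was called lower in deposited FPKM (−0.66) and at equal sums (−0.97). Ncam1, an adhesion molecule, was the most abundant (16.5 ± 0.912 and 20.5 ± 2.55 FPKM) and was called higher with size factors (0.79) but stood at 0.31 in deposited FPKM and 0.01 at equal sums, and L1cam fell (−1.33).

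Of 16 neural progenitor markers, 6 had a control mean and 5 an Al mean of at least 1 FPKM. Sox1, Sox2, Sox3 and Fabp7 had no reads, and 4 of the 6 tested fell, where 23.7% of all tested genes were called lower with size factors, 41.3% in deposited FPKM, 52.3% at equal sums and 23.3% after quantile normalization. Sox9, named after its values were seen, had 24.2 ± 2.01 and 16.2 ± 1.35 FPKM. It did not pass with size factors (−0.09) but was called lower at equal sums (−0.87). Slc1a3, a glutamate transporter of radial glia, fell from 18.9 ± 4.62 to 1.70 ± 0.653 FPKM (log2 fold change −2.96, adjusted P = 2.36e-05 in limma), and Msi2, an RNA-binding protein of progenitors, from 13.8 ± 0.392 to 2.0 ± 0.392 FPKM (−2.27, adjusted P = 6.69e-06). The other 2 that fell were Msi1 and Emx2, named after their values were seen, and all 4 fell under every scaling. The part of these genes in the filament values was not tested.

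Mesenchymal and fibroblast markers were the list nearest to Vim in level. Of 13, 11 had a control mean and 12 an Al mean of at least 1 FPKM, and they summed to 4438 to 6485 FPKM in control libraries and 6226 to 7772 in Al libraries. Col1a2, a chain of type I collagen, had 1657 ± 361 and 1619 ± 195 FPKM, above Vim in both groups, and did not pass with size factors (0.47, adjusted P = 0.186 in limma) but was called lower after quantile normalization (−1.01). Tagln, an actin-binding protein, rose with size factors (1.43) but not at equal sums (0.73, adjusted P = 0.0560 in limma), Thy1, a surface protein of fibroblasts and neurons, rose under every scaling (1.42 with size factors), and Dcn, the matrix proteoglycan decorin, fell (−1.64), a call that was lost with voom on the recovered reads. Over the 13 genes 4 rose and 2 fell with size factors, against 3 and 4 in deposited FPKM, 1 and 6 at equal sums and 2 and 4 after quantile normalization, where all tested genes gave 25.5% and 23.7%, 13.5% and 41.3%, 8.84% and 52.3%, and 21.5% and 23.3%. Neurofilament mRNA was thus scarce or unread and Snap25 had no reads, while collagen and vimentin mRNA were abundant in both groups. Other neural genes were present in control libraries, among them Ncam1 (16.5 FPKM), Msi2 (13.8 FPKM) and Tubb3 (5.32 FPKM). No separate list of synaptic genes was examined, and the identity of the cells was not tested.

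The remaining lists were low apart from single genes. Gja1, the gap junction gene of astrocytes and many other cells, rose from 19.9 ± 1.89 to 32.8 ± 2.89 FPKM (1.20, and 0.42 at equal sums), with Gfap near 0 and Aqp4 at 0 reads. Of 4 tested oligodendrocyte lineage markers 1 rose and 1 fell with size factors, beside 25.5% and 23.7% over all tested genes. Cspg4 stood at 31.5 ± 4.65 and 31.2 ± 9.69 FPKM and did not pass, Pdgfra fell (−1.22), and Olig1 and Olig2 had 8 reads and 1 read in all. Sox10 rose (2.29) from a mean of 0.0230 to 0.431 FPKM. It reached the filter only through the Al group and was named after its values were seen. Of 4 tested microglia markers 1 rose and 0 fell with size factors, beside the same shares. Tmem119, also expressed in mesenchymal cells, stood at 43.5 ± 4.62 and 41.8 ± 26.7 FPKM, with the microglial gene P2ry12 at 0 reads. The gene that rose was Cx3cr1 (2.14), from a mean of 0.0665 to 0.542 FPKM. It likewise reached the filter only through the Al group and was named after its values were seen. Cdh1, epithelial cadherin, fell from 1.10 ± 0.114 to 0.356 ± 0.0741 FPKM (−0.99), with Krt18 at 0 reads.

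**Figure D5:**
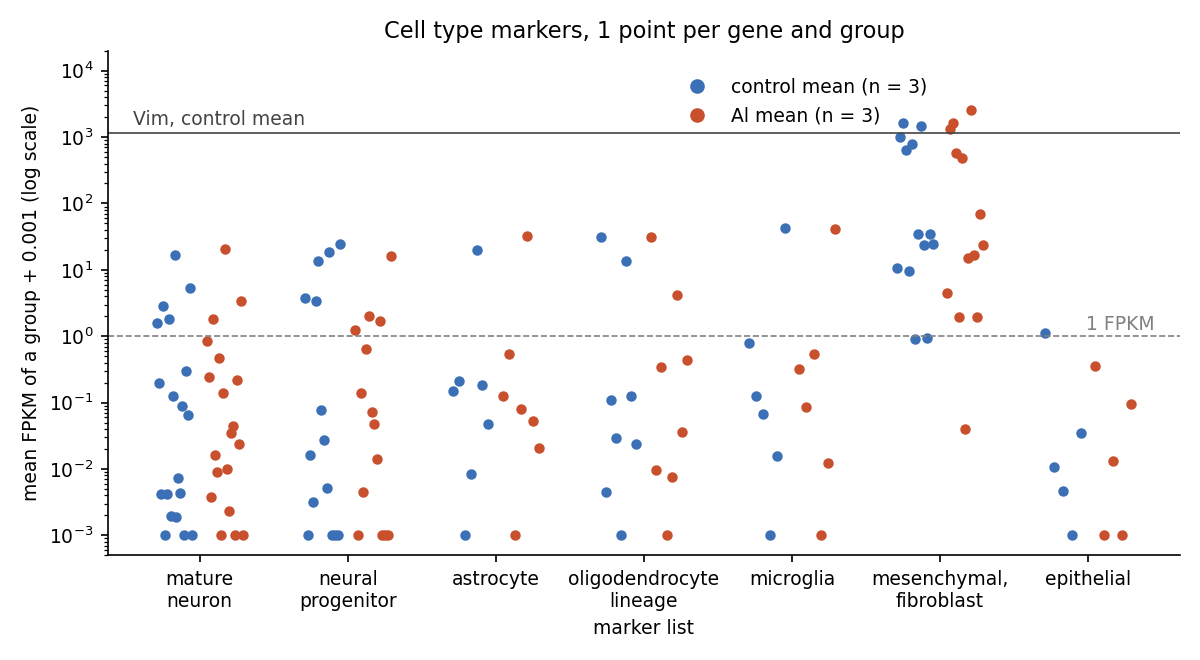
Mean FPKM plus 0.001 on a log axis for the genes reported from 7 marker lists, control means in blue and Al means in red (n = 3 libraries each), with a dashed line at 1 FPKM and a solid line at the control mean of Vim. Only the mesenchymal and fibroblast list reaches the level of Vim, and most mature neuron markers lie below 1 FPKM in both groups.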

How the data were processed

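RNA of the 6 input libraries was examined, 3 per group, and the immunoprecipitated libraries were not analysed here. The authors deposited 1 FPKM value per gene symbol and library, without further scaling. According to the methods, reads were trimmed with Trimmomatic, freed of ribosomal RNA with SortMeRNA and aligned to GRCm38/mm10 with HISAT2, whereas the submitters' processing notes name fastp, HISAT2, HTSeq and GRCm39. The sources therefore disagree on the build, and no coordinate in the text comes from the deposited table. The libraries titled M were taken as the Al group because the design text names a control and an Al-treated group only. Libraries within a group differed beyond sampling noise, so none was a duplicate.

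Whole reads were recovered from the FPKM steps for 17688 of the 17688 genes above 0, a step likewise tested on simulated data. FPKM were divided by the size factor of their library, 0.1 was added, and the log2 values were fitted in R 4.3.3 with limma 3.58.1 (lmFit, eBayes with trend, two-sided). Size factors were medians of ratios over 10337 genes. The 12889 genes with a mean of at least 0.1 FPKM were tested, with Benjamini-Hochberg adjustment over all of them, and a call required a fold change of more than 0.58 in absolute log2 value, the study's threshold, together with an adjusted P under 0.05. Fold changes are on the scale with 0.1 added. The fit was tested on simulated data. Single values were compared by exact permutation over libraries. The study used DESeq2, which needs counts and was not run here.

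The 10 genes and the 14 other gene lists were chosen with earlier results of these data known. Named from each list were the tested gene with the highest control mean and, among called genes with a mean of at least 1 FPKM, up to 2 with the largest increase and 2 with the largest decrease; exceptions are marked, and some listed genes are not reported here. Alternatives were 3 other scalings, 2 pseudocounts, 2 filters, a replicate block, a fit with no trend, omission of each library, unadjusted P, limma's voom on recovered reads, and centring within bins of GC content. Transcript positions, GC content and copies came from GENCODE vM21 on GRCm38 with minimap2 2.31-r1302, and 92.5% of the gene symbols had a transcript. Promoters came from RefSeq. Python 3.11.15, numpy 2.4.6 and pandas 2.3.3 were used.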

Additional observations from a re-analysis of the deposited data

How the results depend on the processing

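Vim and Stmn1 turned direction with 3 scalings. Vim moved from a log2 fold change of 0.37 to −0.12 (FPKM as deposited), −0.41 (equal sums, TPM) and −0.98 (quantile normalization), and Stmn1 from 0.41 to −0.082, −0.38 and −0.22. Prph, at −1.12, passed the threshold with those scalings at −1.35, −2.07 and −1.36. The count of members called higher went from 0 to 1 without the filter on low values (Gap43, a fitted 1.35 that depends on the pseudocount, adjusted P = 0.0384 in limma), and the count called lower to 1 with deposited FPKM, 1 with TPM and 2 with quantile normalization. When single libraries were omitted, the members called higher ranged from 0 to 1 (Gap43 without Al replicate 3, a fitted 1.87). Gap43 reached the filter there only through the Al group, where it is higher. The members called lower also ranged from 0 to 1 (Prph), and Prph from −1.51 to −0.79. The shares of all genes called without the filter or on omission are not given here, so these counts have no background. Vim made up 99.94% of the filament members in control libraries (99.9416) and in Al libraries (99.9384) when reads were not divided by length. Under the remaining alternatives Vim, Stmn1 and Prph kept their direction and were not called, but Prph moved to −0.24 with a pseudocount of 1 and −2.37 with 0.01. The adjusted P of Stmn1 (0.0303 in limma) rose to 0.0694 with GC content bins, 0.0522 without trend and 0.0632 to 0.108 when any library but Al replicate 3 was omitted.

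Libraries with the same replicate number did not deviate together (correlations of −0.0329, −0.0257 and −0.0733). Such values cannot tell whether libraries of the same number were handled together. With the replicate block the log2 fold changes stayed at 0.37 for Vim (adjusted P = 0.439 in limma), 0.41 for Stmn1 (0.0602) and −1.12 for Prph (0.120), the Stmn1 to Vim ratio at 0.03, and 0 members were called higher and 0 lower. Of 28 counts over the other lists, 15 moved by over 1.5 times at equal sums, 10 with deposited FPKM, 8 with quantile normalization, 8 with a mean of at least 1 FPKM required, 7 with a pseudocount of 1, 6 without Al replicate 3, 1 with voom (mesenchymal genes called lower, 0 instead of 2) and 1 with the block (mesenchymal genes called higher, 2 instead of 4). The cause of these changes was not tested. Depth limits the 8 scarce genes, for which a count of 0 allows up to 0.0673 to 0.142 RPM, depending on the library.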
